A study of Mus musculus with 6 samples.

Results

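Laminins are the cross-shaped trimers of basement membranes, and the genes of 9 laminin chains were followed here in ischemic muscle: Lama1, Lama2, Lama3, Lama4, Lama5, Lamb1, Lamb2, Lamb3 and Lamc1. The chains were chosen by gene name, and their values are read counts summed over the listed transcripts of each gene, which gave 9 of the 18089 genes in the table. Lamc3, a gamma chain outside the list, is given only beside the members. The libraries came from ischemic gastrocnemius muscle of male C57BL/6 mice aged 8 to 10 weeks, 7 days after hindlimb ischemia (HLI), in which the femoral artery was ligated and the segment between the knots removed. 3 libraries were from wild-type (WT) mice and 3 from mice lacking the receptor GPR174 in all cells (Gpr174-/Y). Muscle without ischemia was not analysed here, so every level is that of injured, regenerating tissue. The chains were listed with results of this genotype comparison known, so their test values describe the fit and are not independent support for any pattern.

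Each laminin trimer holds 1 alpha, 1 beta and 1 gamma chain. The short arms polymerise into a sheet, and the alpha chain's far end binds integrins and dystroglycan on the cell. In adult muscle the alpha2 chain predominates around the fibres, the beta2 chain is enriched at neuromuscular junctions, and alpha4 and alpha5 are the alpha chains of blood vessels. Loss of alpha2 causes a congenital muscular dystrophy, and the alpha1 chain belongs mainly to embryonic and epithelial basement membranes.

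The libraries held 18417107 to 19394505 expected counts. As a floor, 3 counts corresponded to 0.155 to 0.163 CPM, the usual unit of counts relative to library size, before the TMM scaling described below. After that scaling the 3 counts of Lama1 in WT replicate 1, which lie at this floor, were 0.187 CPM. Gpr174 had expected counts of 7.97, 2.32 and 5.45 in the WT libraries and 1.10, 0 and 0 in the Gpr174-/Y libraries. The mature fibre genes were high, with the fast myosin Myh4 at 6770 to 31348 CPM and the actin Acta1 at 17982 to 46770 CPM, matching the muscle label. The 3 libraries of a genotype were not evenly spread: replicate 2 lay between replicates 1 and 3 for 86.0% (WT) and 76.6% (Gpr174-/Y) of the 3851 genes averaging 50 CPM or more, and for 8 and 7 of the 9 chains. Gpr174-/Y replicates 1 and 2 differed little beyond counting error, with 7.56% of 7429 genes at a counting p under 0.05 against 14.9% to 51.8% for the other pairs. With replicates 1 and 3 of each group only, an alternative chosen after seeing the data, edgeR's quasi-likelihood test called 0 chains and 0 genes at an adjusted p under 0.05 (3 chains and 5026 genes at an unadjusted p under 0.05). The methods give 3 mice per group, and p-values measure the spread between these libraries only. Levels are CPM scaled by TMM, a method that sets the bulk of genes equal between libraries, unless TPM (transcript counts scaled for length and library size) is named.

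3 stretches before the transcript starts are shown. They belong to 2 chains that were lower in Gpr174-/Y muscle, Lamb2 and Lama5, and to Lamb1, a beta chain that was not lower. The table of RefSeq promoters used here (GRCm38.p6) gave such a stretch for 5 of the 9 chains, and Lama1, Lama3, Lama4 and Lamc1 had no entry in it. Only bases before every annotated transcript of the gene are printed, 5′ to 3′, with capitals marking E-boxes (CANNTG, the site of myogenic basic helix-loop-helix factors among others) and GC boxes (GGGCGG or its complement CCGCCC). The Lamb2 stretch is chr9:108479612-108479735 on the plus strand, the Lama5 stretch chr2:180225905-180226109 on the minus strand, and the Lamb1 stretch chr12:31265043-31265145 on the plus strand.
Lamb2: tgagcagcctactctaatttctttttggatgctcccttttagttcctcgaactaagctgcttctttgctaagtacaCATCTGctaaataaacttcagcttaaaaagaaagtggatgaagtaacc
Lama5: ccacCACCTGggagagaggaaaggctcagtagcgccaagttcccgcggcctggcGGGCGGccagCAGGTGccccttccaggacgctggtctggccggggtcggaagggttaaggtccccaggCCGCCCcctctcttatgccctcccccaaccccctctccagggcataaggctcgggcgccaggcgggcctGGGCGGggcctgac
Lamb1: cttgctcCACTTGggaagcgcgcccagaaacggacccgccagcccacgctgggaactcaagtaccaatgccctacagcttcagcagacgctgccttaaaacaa

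In the whole 250 bases before the start, Lamb2 held 1 E-box and 0 GC boxes at 43.6% GC, and Lama2 also held 1 E-box and 0 GC boxes at 47.2% GC. Lama5 held 2 E-boxes and 4 GC boxes at 72.4% GC, and Lamb1 held 2 of each at 62.0% GC. Both strands were searched, and of all 32851 promoters of this length 66.2% held an E-box and 32.7% a GC box. The binding site of EGR1 (GCGTGGGCG), a factor studied with this receptor, had no match in the 5 chains' windows and was in 0.536% of all promoters. The Lama2 window lies, but for 1 base, inside the gene's own RefSeq span on chromosome 10 and is not printed.

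By TPM, which can be compared between genes, Lamc1 was the most abundant chain, with a mean of 120 TPM over the 6 libraries (109 to 132). Its product gamma1 is the shared gamma chain of nearly all muscle laminins. Lamb1 followed at 103 TPM (82.5 to 122), then Lama4 at 60.9 TPM (53.0 to 68.0) and Lamb2 at 57.5 TPM (52.3 to 64.4). Lama4 was above Lamb2 in only 4 of 6 libraries, so this pair was not separated by its spread. Lama2 had a mean of 24.0 TPM (22.3 to 26.1) and Lama5 11.2 TPM (10.3 to 13.2). The vessel chain Lama4 was therefore listed above the fibre chain Lama2 in all 6 libraries of this injured muscle. Lama3 (1.79 TPM), Lamb3 (0.985 TPM) and Lama1 (0.275 TPM) came last, and apart from Lama4 and Lamb2 each chain was above the next one in 6 of 6 libraries. The plot of CPM by library shows how narrow the spread was for the abundant chains and how low Lama1 was in WT muscle.

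**Figure D1:**
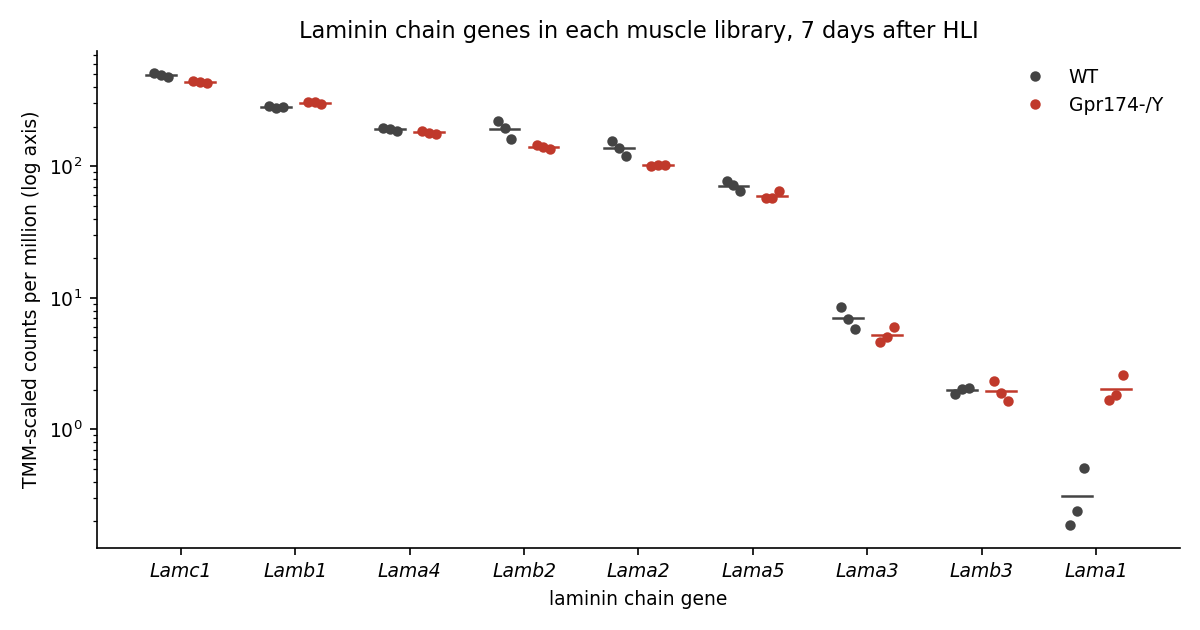
TMM-scaled CPM (log axis) of the 9 laminin chain genes, ordered by mean TPM; each point is 1 library and each bar the mean of 3 libraries of a genotype. Lama1 sits at 0.187 to 0.506 CPM in WT and 1.67 to 2.60 CPM in Gpr174-/Y libraries, and the other chains differ by a smaller fold. Of these, Lama2, Lamb2, Lama5 and Lamc1 are lower and Lamb1 higher in Gpr174-/Y libraries without overlap.

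Between genotypes, Lama1 was 6.36-fold higher in Gpr174-/Y than in WT muscle, and Lama2, Lamb2 and Lama5 were modestly lower with TMM scaling. With total counts the log2 fold changes of these 3 were -0.14, -0.18 and 0.03, and none of them passed an adjusted p of 0.05. In edgeR's quasi-likelihood fit over 14395 genes, 4 of 9 chains passed an adjusted p of 0.05, against 54.6% of all genes tested, so the chains passed no more often than genes in general. 1 chain was higher, against 27.0% of all genes, and 3 were lower, against 27.6%. 1 chain (Lama1) passed both this and an absolute log2 fold change of 1, against 8.28% of all genes. In 6 of 9 chains the CPM of the groups did not overlap (2 higher and 4 lower in Gpr174-/Y), close to the 65.6% of all genes. The median log2 fold change was -0.17 over the chains and 0.00 over all genes. All 9 chains passed the filter on low counts, but Lama1 passed through its Gpr174-/Y libraries alone, so that only a chain that differed could pass in this way.

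These directions depend on how libraries are scaled. With total counts in place of TMM the median of all genes moved by 0.27 to 0.28 on the log2 scale, the share of called genes that were higher in Gpr174-/Y went from 49.5% (3891 against 3972) to 78.4% (7303 against 2010), and the chains' median was 0.10. Then 3 of 9 chains passed, against 64.7% of all genes, and all 3 were higher (Lama1, Lama4 and Lamb1), against 50.7% of all genes higher and 14.0% lower. 4 chains (Lama4, Lama5, Lamb3 and Lamc1) had a fold change of opposite sign under the 2 scalings. Relative to the median of all genes, Lama1 and Lamb1 were above it and the other chains below it under both scalings, as the plot of fold changes shows. The change of scaling moves nearly all genes by about the same amount. A position relative to the median could therefore hardly change, and its agreement under both scalings is no added support.

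**Figure D2:**
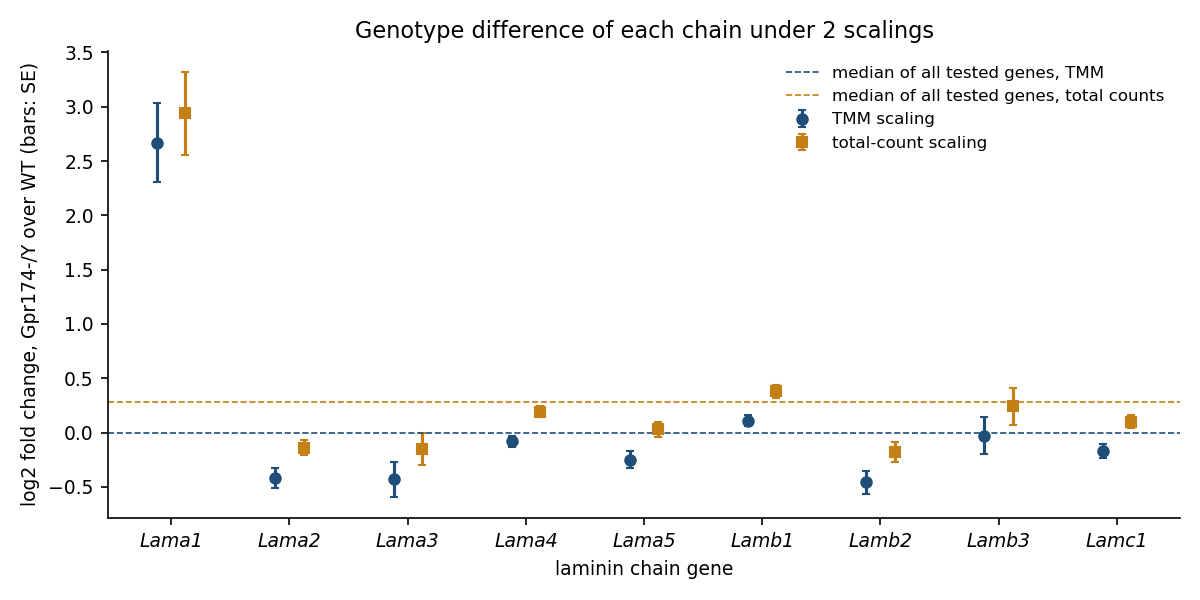
Log2 fold change (Gpr174-/Y over WT) with its SE for each chain after TMM (circles) and total-count (squares) scaling, 3 libraries per genotype; dashed lines mark the median of all tested genes at 0.00 and 0.28. Lama1 stands at 2.67 and 2.94, and apart from Lama1 and Lamb1 every chain lies below the matching dashed line under both scalings.

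Among the alpha chains, Lama1 (chromosome 17, 67697127 to 67822645 in GRCm38.p6) encodes the embryonic alpha1 chain. It had 3, 4 and 9 counts in the WT libraries and 35, 39 and 56 in the Gpr174-/Y libraries. As CPM these were 0.187, 0.238 and 0.506 against 1.67, 1.84 and 2.60, and every Gpr174-/Y library was above every WT library. The log2 fold change was 2.67 (SE 0.36, adjusted p = 0.00175 by edgeR's quasi-likelihood test, n = 3 and 3), and without the filter on low counts it was 2.68 (adjusted p = 0.00132). The summed counts of 16 and 130 gave a ratio of 6.47 after scaling (95% exact interval 3.84 to 11.6, covering counting error only). Even in Gpr174-/Y muscle this was the least abundant alpha chain, at 0.379% to 0.590% of alpha chain TPM. With replicates 1 and 3 only, its log2 fold change was 2.58 with an adjusted p of 0.0548. The split of its counts over 3 listed transcripts was unstable, since NM_008480.2 took 90.4% of them in Gpr174-/Y replicate 3 and 0% in replicates 1 and 2, so only the gene sum is used.

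Lama2 (chromosome 10, 26981285 to 27617191), the alpha chain of the fibre basement membrane, was at 155, 138 and 120 CPM in WT and at 101, 103 and 103 CPM in Gpr174-/Y libraries. The groups did not overlap, and the WT libraries were spread widely (SD 17.5) while the Gpr174-/Y libraries were nearly equal (SD 0.941). The log2 fold change was -0.42 (SE 0.09, adjusted p = 0.00888), or 1.34-fold higher in WT. With total counts it was -0.14 (adjusted p = 0.126), and the total-scaled values overlapped. With replicates 1 and 3 of each group only it was -0.42 (adjusted p = 0.120).

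Lama4 (chromosome 10, 38965515 to 39110188), the alpha chain of capillaries and other vessels, was at 195, 193 and 184 CPM in WT and 186, 180 and 176 CPM in Gpr174-/Y libraries. The ranges overlapped, and the log2 fold change of -0.08 (SE 0.05, adjusted p = 0.247) turned to 0.19 (adjusted p = 0.0125) with total counts. Lama5 (chromosome 2, 180176373 to 180225904), the alpha chain of mature vessels and of synapses, was at 77.1, 71.4 and 65.2 CPM against 57.8, 57.3 and 64.4 CPM. The groups were separated by a small gap between WT replicate 3 and Gpr174-/Y replicate 3. The log2 fold change was -0.25 (SE 0.08, adjusted p = 0.0319), and it was 0.03 (adjusted p = 0.773) with total counts. With curated transcripts only it was -0.02 (adjusted p = 0.913). The Lama5 call also ended without Gpr174-/Y replicate 1 (-0.23, adjusted p = 0.102) or 2 (-0.22, 0.118) and without WT replicate 1 (-0.18, 0.0854) or 2 (-0.25, 0.106). Lama3 (chromosome 18, 12333417 to 12583013), the alpha chain of epithelial laminins, was at 8.46, 6.90 and 5.84 CPM in WT and 4.64, 5.04 and 6.00 CPM in Gpr174-/Y libraries. These ranges overlapped, and the log2 fold change was -0.43 (SE 0.16, adjusted p = 0.0612). It passed only without WT replicate 3 (-0.54, adjusted p = 0.0125).

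Among the beta chains, Lamb1 (chromosome 12, 31265146 to 31329644), the beta chain of most laminins, was at 286, 279 and 282 CPM in WT and 310, 306 and 297 CPM in Gpr174-/Y libraries. Every Gpr174-/Y library was above every WT library, by a log2 fold change of 0.11 (SE 0.05, adjusted p = 0.133), which became 0.38 (adjusted p = 0.00190) with total counts. Lamb2 (chromosome 9, 108479847 to 108490530), the synaptic beta chain, was at 220, 196 and 162 CPM in WT and 145, 140 and 135 CPM in Gpr174-/Y libraries. Here every Gpr174-/Y library was below every WT library, and the log2 fold change was -0.46 (SE 0.11, adjusted p = 0.0124). With total counts it was -0.18 (adjusted p = 0.105), and with replicates 1 and 3 only it was -0.45 (adjusted p = 0.138). Restricting Lamb2 to its curated transcript gave -0.77 (adjusted p = 0.0169), since the predicted one took 4.67% to 11.3% of its counts in WT and 12.3% to 37.5% in Gpr174-/Y libraries. Lamb3 (chromosome 1, 193294353 to 193343878), an epithelial beta chain, was at 1.87, 2.02 and 2.08 CPM against 2.34, 1.88 and 1.63 CPM. Its ranges overlapped and its log2 fold change was -0.03 (SE 0.17, adjusted p = 0.891), with 0.24 under total counts and with both 0.08 and 0.01 when Gpr174-/Y replicate 3 or WT replicate 3 was left out.

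Lamc1 (chromosome 1, 153218922 to 153332786), the common gamma chain, was at 508, 493 and 473 CPM in WT and 443, 437 and 430 CPM in Gpr174-/Y libraries. The groups did not overlap, yet the log2 fold change of -0.17 (SE 0.06, adjusted p = 0.0534) did not pass, and it was 0.10 (adjusted p = 0.156) with total counts. Lamc1 lay near the threshold: it passed without WT replicate 3 (-0.19, adjusted p = 0.0158), with the DESeq2 Wald test (-0.17, 0.0144), with DESeq2 size factors (-0.17, 0.0498) and with limma voom (-0.17, 0.0425). Outside the list, Lamc3 was at 2.30, 1.96 and 1.97 CPM against 0.478, 1.18 and 1.30 CPM, on 168 counts in all. Its log2 fold change was -1.06 (SE 0.32, adjusted p = 0.0268). It did not pass with total counts (-0.79, adjusted p = 0.0682), the replicate block (-1.09, 0.0649) or curated transcripts only (-1.06, 0.0776).

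Shares of RNA within a library do not depend on scaling between libraries. Lama2 made up 28.2%, 26.5% and 24.9% of the summed alpha chain TPM in WT and 22.1%, 22.8% and 22.8% in Gpr174-/Y libraries, a difference of -3.93 percentage points. Lama4 made up 57.4%, 59.8% and 61.7% against 65.3%, 64.3% and 62.7%. Neither chain's share overlapped between genotypes, and each had an exact 2-sided permutation p of 0.1, the smallest that 3 against 3 libraries can give. Lama1 went from 0.0433%, 0.0438% and 0.112% to 0.379%, 0.422% and 0.590%, also without overlap. The Lama5 share (11.7% ± 0.229 against 11.2% ± 0.777, SD, n = 3) and the Lama3 share (1.80% to 2.31% against 1.46% to 1.81%) overlapped.

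**Figure D3:**
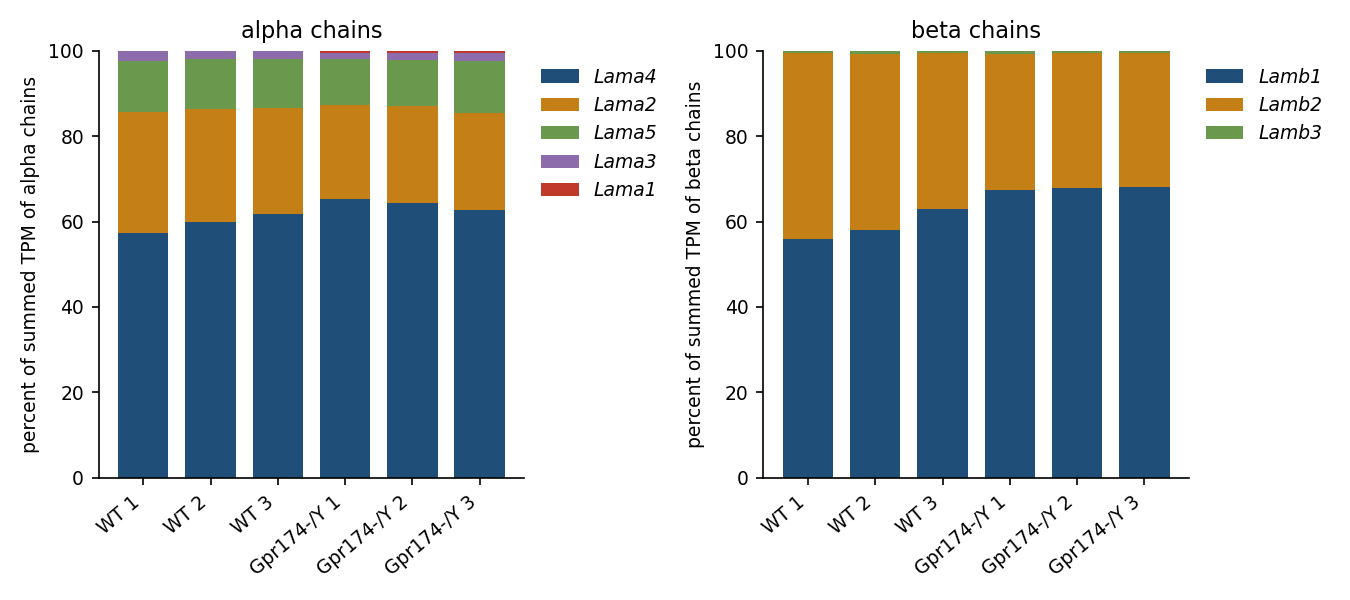
Percent of the summed TPM of the alpha chains (left) and of the beta chains (right) taken by each chain in each of the 6 libraries, stacked to 100 percent. Lama4 takes more and Lama2 less of the alpha chain TPM in the Gpr174-/Y libraries, and Lamb1 takes 55.9% to 62.9% of the beta chain TPM in WT and 67.4% to 68.1% in Gpr174-/Y libraries.

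For the beta chains the Lamb1 to Lamb2 ratio of TPM was 1.28, 1.41 and 1.72 in WT and 2.11, 2.15 and 2.17 in Gpr174-/Y libraries. Every Gpr174-/Y library was higher, by 0.55 on the log2 scale (1.05 with curated transcripts only). Lamb2 was below Lamb1 in all 6 libraries, and its share of beta chain TPM was 36.5% to 43.6% in WT and 31.4% to 31.9% in Gpr174-/Y libraries. The Lama2 to Lamc1 ratio was 0.239, 0.219 and 0.198 against 0.179, 0.185 and 0.188 (log2 difference -0.24). The Lama4 to Lama5 ratio overlapped, at 4.80 to 5.35 against 5.17 to 6.08. Of 12 shares and ratios compared, 8 had groups that did not overlap, beside 65.6% of all genes by CPM, and several restate 1 comparison, such as the Lamb1 share, the Lamb2 share and their ratio. Their exact permutation p of 0.1 became 0.150 after Benjamini-Hochberg adjustment, so none passed and none could have passed with 3 libraries per group.

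Marker RNA of fibres and other cells differed between genotypes too, and in whole-muscle RNA fewer cells of a type and less RNA per cell cannot be told apart. The 20 mature fibre genes were lower in Gpr174-/Y muscle in 20 of 20 cases, against 27.6% of all genes. With total counts 20 of 20 were lower too, against 14.0%. They took 14.2% to 19.1% of counts in WT and 7.49% to 8.06% in Gpr174-/Y libraries. Within WT, the library with the most mature fibre counts (replicate 1, 19.1%) also had the highest Lama2 and Lamb2, and the one with the least (replicate 3, 14.2%) the lowest. Lama3, Lama4, Lama5 and Lamc1 ranked the WT libraries in the same way, and within Gpr174-/Y Lama2 was lowest (101 CPM) in the library with the most fibre counts (replicate 1, 8.06%). In WT, replicate 2 lay between replicates 1 and 3 for 86.0% of the abundant genes. Most genes therefore rank these libraries either with or against the fibre share, and a shared order says little. Lamb1 and Lama4 varied little over the same libraries, as the plot against mature fibre counts shows. With a mature fibre score as a covariate in the edgeR fit, 0 of 9 chains passed (1 at an unadjusted p under 0.05), and the log2 fold changes of Lama1 (-1.59, adjusted p = 0.622), Lama2 (0.43, 0.334) and Lamb2 (0.67, 0.0799) had the opposite sign. The score itself separated the genotypes, so genotype and fibre content cannot be told apart here.

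**Figure D4:**
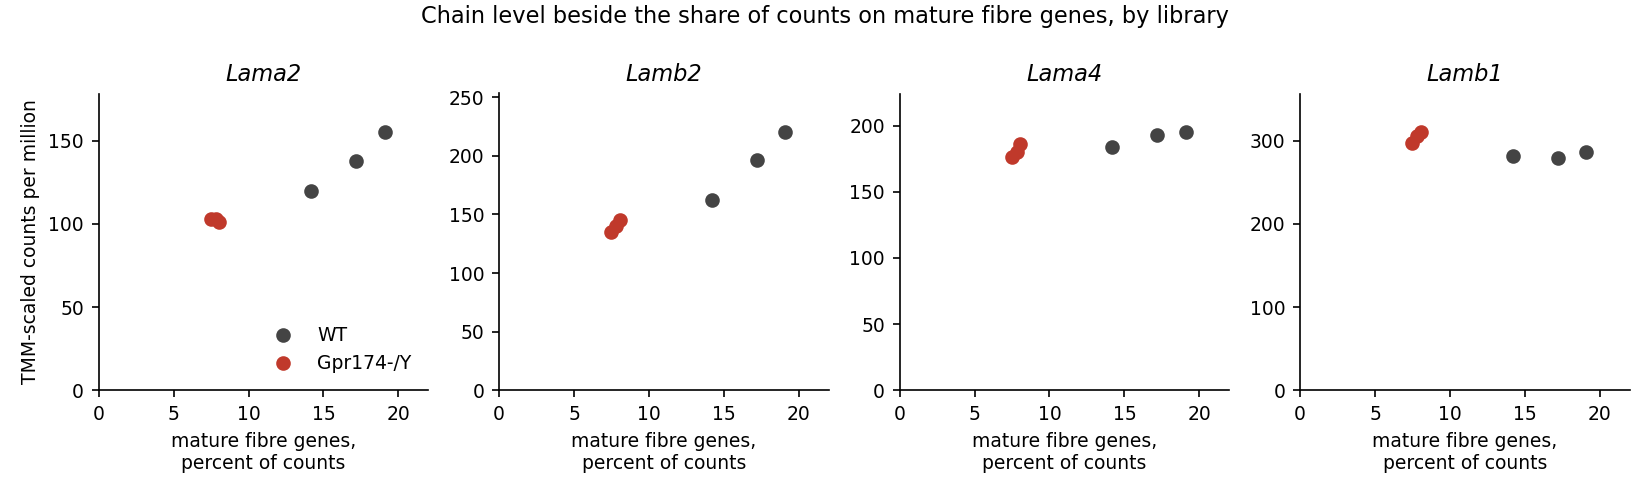
TMM-scaled CPM of Lama2, Lamb2, Lama4 and Lamb1 against the percent of counts on the 20 mature fibre genes, 1 point per library (3 WT, 3 Gpr174-/Y), with both axes from 0. The WT libraries lie at 14.2% to 19.1% and the Gpr174-/Y libraries at 7.49% to 8.06%; Lama2 and Lamb2 are highest where the fibre share is highest, and Lama4 and Lamb1 are nearly flat.

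Marker lists of other cells were compared in the same way, and some of them differed. Over all genes tested, 27.0% were higher and 27.6% lower, and several of the lists lie near these shares. Of 12 endothelial genes, 11 were lower and 1 higher in Gpr174-/Y muscle. Their sum was 1192 to 1406 CPM in WT and 754 to 854 CPM in Gpr174-/Y libraries, beside the nearly level vessel chain Lama4. Of 10 pericyte and smooth muscle genes 4 were higher and 4 lower (1325 to 1339 against 1450 to 1629 CPM). Within that sum Acta2 was higher (225 to 331 against 569 to 686 CPM) and Rgs5 lower (388 to 551 against 260 to 278 CPM). Of 10 fibroblast genes 3 were higher and 5 lower (12449 to 17443 against 21065 to 24097 CPM). Most of this sum was Col1a1 (4975 to 8118 against 10972 to 12487 CPM) and Col3a1 (5668 to 7481 against 8841 to 10277 CPM), both higher. Of 12 regenerating fibre genes 8 were higher and 0 lower (6725 to 8772 against 7965 to 9833 CPM), and of 10 macrophage genes 8 were higher and 0 lower (1125 to 1620 against 2632 to 2662 CPM). Beside Lama1, Lama3 and Lamb3, the epithelial list had 1 higher and 3 lower of 5 tested genes (68.6 to 110 against 36.2 to 45.1 CPM). Its keratins Krt18 (28.1 to 45.0 against 8.61 to 8.94 CPM) and Krt8 (12.3 to 17.4 against 4.65 to 5.09 CPM) were present and lower. Trp63 had 364 to 762 counts per library and did not pass. The keratins Krt14 and Krt15 of the same list had at most 3 counts in every library. Of 9 Schwann cell genes tested, 0 were higher and 1 lower (128 to 157 against 120 to 144 CPM). Of 4 perineurial genes tested 1 was higher and 1 lower (28.7 to 33.7 against 43.4 to 46.7 CPM), and of 3 neutrophil genes 2 were higher and 1 lower (22.5 to 29.1 against 33.4 to 36.7 CPM), with Ly6g, Camp and the perineurial Lypd2 at 3 counts or fewer in every library. With total counts, 50.7% of all genes were higher and 14.0% lower. The endothelial counts then stayed the same, and the regenerating fibre and macrophage lists each had 9 higher and 0 lower. Pericyte genes were 5 higher and 3 lower, fibroblast genes 4 and 4, and Schwann genes 2 and 0. Epithelial genes were 1 higher and 2 lower, perineurial genes 2 and 1, and neutrophil genes 2 and 0. The part of these cells in the laminin values was not tested.

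Of 19 tested partners of laminins in the basement membrane, 3 were higher and 8 lower in Gpr174-/Y muscle (median log2 fold change -0.21), against 27.0% higher and 27.6% lower of all genes. With total counts 6 were higher and 7 lower, against 50.7% and 14.0%. Without Gpr174-/Y replicate 1 or 2, or without WT replicate 2, 1 partner was higher. With TMM the 3 that passed both thresholds were Col4a3 (-1.58, adjusted p = 0.0161) and Col4a4 (-1.45, adjusted p = 0.00315), which form the alpha3 and alpha4 chains of collagen IV, and Egflam (-1.23, adjusted p = 0.00689), which encodes pikachurin, a dystroglycan ligand, and which with total counts was at -0.94. Sparc, a collagen-binding matrix protein, was the highest at 0.44 (adjusted p = 0.0143).

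Of the 14 laminin receptor genes 1 was higher and 4 were lower (median -0.05), against 27.0% and 27.6% of all genes, and with total counts 8 were higher and 0 lower, against 50.7% and 14.0%. Sdc1, the heparan sulphate proteoglycan syndecan-1, was the highest at 0.91 (adjusted p = 0.00420), and Itga2, the integrin alpha2 subunit, the lowest at -0.47 (adjusted p = 0.0120). Without WT replicate 3, 6 receptor genes were higher, and without Gpr174-/Y replicate 2, 2 were lower. Dystroglycan binds the alpha2 chain only after its sugar chains are built, and of 17 genes of that glycosylation 2 were higher and 8 lower (median -0.34), against 27.0% and 27.6% of all genes, with 3 in each direction under total counts, against 50.7% and 14.0%. Gmppb, which makes GDP-mannose, was the highest at 0.54 (adjusted p = 0.00881), and B3galnt2, a glycosyltransferase of the core sugar, the lowest at -0.89 (adjusted p = 0.00240). Leaving out any library except WT replicate 3 left 1 higher glycosylation gene. With TMM no receptor or glycosylation gene passed both thresholds, while with total counts Sdc1 did (1.18, adjusted p = 0.00226).

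The genes most like Lama1 over the 6 libraries were found by the root mean square difference of mean-centred log2 CPM among 13594 genes. Nearest to Lama1 were Dcstamp (0.114), Arg1 (0.188), Tubb3 (0.211), Gzme (0.214) and R3hdml (0.252). Dcstamp, a cell fusion protein of macrophages and osteoclasts, had 0.187, 0.298 and 0.618 CPM in WT libraries. In Gpr174-/Y libraries it had 1.86, 1.79 and 2.60 CPM, and both sets were near the values of Lama1 itself. Like Lama1, Dcstamp rests on few counts in WT, and any gene with a similar difference between genotypes lies near by this measure. Whether these genes are expressed in the same cells was not tested. Nearest to Lama2 were 8030462N17Rik (0.0133), Pald1 (0.0157), Sun2 (0.0171), Gstp1 (0.0171) and Cul2 (0.0174). Sun2, a nuclear envelope protein, was at 146, 135 and 114 CPM in WT and 96.5, 98.8 and 98.2 CPM in Gpr174-/Y libraries.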

How the data were processed

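Expected counts (estimated reads, not normalized) were deposited for 58843 RefSeq transcripts in 1 table, along with FPKM and TPM scaled by the authors for length and library size. The methods name the BGISEQ-500 platform. The submitters' processing notes list HISAT2 2.0.4, Bowtie2 2.2.5, RSEM 1.2.12 and GRCm39 without a role; strand use is not given in the sources used here. Estimated counts were summed per Entrez gene (99.7% matched a symbol) and rounded, and TPM was summed likewise. Coordinates and promoters are RefSeq on GRCm38.p6.

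WT and Gpr174-/Y libraries were grouped from the labels and compared with edgeR 4.0.16 in R 4.3.3 (filterByExpr, TMM, the quasi-likelihood F-test in its robust form, Benjamini-Hochberg over 14395 genes). The thresholds were an adjusted p of 0.05 and, as in the study, an absolute log2 fold change of 1. Shares used exact 2-sided permutation tests over all splits into 3 and 3 libraries (Python 3.11.15). Gene sums were whole (within 0.02) for 8 of 9 chains, the exception being Lama2.

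The members and lists were chosen with earlier results of these data known. Named genes are the chains, Gpr174, genes past both thresholds and the highest and lowest of the basement membrane, receptor and glycosylation lists, the 2 genes of highest CPM in each marker list (printed for mature fibre, pericyte, fibroblast and epithelial lists only), and the 5 genes most like Lama1 or Lama2 with a mean of at least 1 CPM. Lamc3 was named by the same rule. Markers at 3 counts or fewer were named for their absence, and Krt8 for its presence, after their values were seen. Alternatives were DESeq2 1.42.0 (size factors; Wald test), upper-quartile and total-count scaling, limma 3.58.1 (voom; log2 FPKM with a pseudocount of 1 or 0.1, where 3 libraries reached an FPKM of 1), dropping the filter or asking for 10 counts in each library, curated transcripts only, shares without length scaling, a replicate block, a mature fibre score and each library left out.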

Additional observations from a re-analysis of the deposited data

How the results depend on the processing

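Of 162 recomputed fold changes of single chains, 117 kept their direction and side of the threshold, 16 lost the call, 8 gained it and 21 reversed. Lama1 ranged from -1.59 to 3.23 over 15 alternatives and passed in 13, Lama2 from -0.55 to 0.43 over 19 and passed in 14, and Lamb2 from -0.77 to 0.67 over 19 and passed in 14. The causes were not tested. Total counts gave 0.19 for Lama4, 0.03 for Lama5, 0.24 for Lamb3 and 0.10 for Lamc1, and both FPKM fits gave 0.19, 0.02 and 0.10 for Lama4, Lama5 and Lamc1. With the mature fibre score, Lama1 was -1.59, Lama2 0.43, Lama3 0.50, Lama4 0.18, Lama5 0.17, Lamb2 0.67, Lamb3 0.11 and Lamc1 0.10. Lamb3 was 0.01 with replicates 1 and 3 only (chosen after seeing the data) and from -0.18 to 0.08 with each library left out.

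The mature fibre score left 308 genes called (282 past both thresholds), with 0 chains called or past both. Of the lists it left 0 higher and 1 lower basement membrane partners and 0 receptor and 0 glycosylation genes. Replicates 1 and 3 only left 0 genes, chains or list genes. The FPKM fits (645 genes past both thresholds with a pseudocount of 1) and curated transcripts each called 2 chains with 0 past both, and 0 were past both with at least 10 counts in every library; the filters of these 4 fits left out Lama1, the one chain otherwise past both. The FPKM fits called 6 higher and 5 lower partners, 7 higher and 0 lower receptors and 3 lower glycosylation genes, and total counts 6 higher partners, 8 higher and 0 lower receptors and 3 lower glycosylation genes. Higher glycosylation genes numbered 1 with the DESeq2 Wald test, with curated transcripts and with the replicate block. With each library left out, 3 to 6 chains passed, with 1 past both each time, as did 5457 to 9165 genes (924 to 1826 past both, the most without WT replicate 3). The lists then had 1 to 3 higher and 6 to 10 lower partners, 1 to 6 higher and 2 to 5 lower receptors, and 1 to 2 higher glycosylation genes.

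Curated transcripts moved the differences in share to 0.192 (Lama1), -5.42 (Lama2), -0.0412 (Lama3), 1.03 (Lama5), 18 (Lamb1) and -18 (Lamb2) percentage points, and the log2 ratios to -0.38 (Lama2 to Lamc1), -0.06 (Lama4 to Lama5) and 1.05 (Lamb1 to Lamb2). Without length scaling the Lama1 share differed by 0.503 points. The Lamb3 share difference was -0.0265 to 0.0697 points with each library left out.

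Same-numbered libraries did not deviate together (correlations 0.0168, -0.0269 and -0.00637), and the numbers do not pair the mice. The fit with the replicate block called 3 chains, with Lama5 no longer called (adjusted p = 0.0842), and 6812 genes.

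Lama1 rests on 146 counts in all, and 3 libraries per group limit exact tests to a smallest p of 0.1. Levels in uninjured muscle and in separate cell types were not analysed here.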
